A study of Homo sapiens with 9 samples.

Results

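The cytosolic ribosomal protein genes are the 80 rows of the count table, of 30000 in all, whose symbol is RPL or RPS followed by a number and, for some, a closing A, X or L, or is RPLP0, RPLP1, RPLP2 or RPSA. Where a symbol occurred more than once the first row was taken, and pseudogenes were left out. The large 60S subunit accounts for 48 of them and the small 40S subunit for 32. They were followed by RNA-seq of THP-1, a monocytic line from a human leukaemia, in 3 groups of 3 libraries. The first group had been given ectosomes labelled PKM2_KD, read here as ectosomes of Huh7 hepatoma cells with PKM2 knocked down, the second ectosomes of Huh7 cells carrying a scramble shRNA, and the third, labelled Ctrl, carries no entry for ectosomes. Ectosomes are vesicles shed from the plasma membrane, and PKM2 is an isoform of pyruvate kinase made from the PKM gene. The sources used here give neither the shRNA sequences, the number of Huh7 clones, the ectosome dose nor the length of the incubation. There was no group with an shRNA and without ectosomes. The labels number the replicates without tying them to separate cultures, so the p-values rest on a spread among libraries that may be technical.

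A ribosome holds 1 copy of most of these proteins, and cells make them in matched amounts together with ribosomal RNA, which takes up much of the synthetic capacity of a growing cell. Their mRNAs are among the most abundant of a proliferating line and most belong to the TOP class, whose 5′ end begins with a cytosine followed by an uninterrupted run of pyrimidines. The kinase complex mTORC1 and the RNA-binding protein LARP1 govern the translation and stability of TOP mRNAs, and MYC promotes the transcription of ribosomal protein genes. Slowing of growth and terminal differentiation of leukaemia cells are settings in which these mRNAs are known to decline.

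Libraries held 17744587 to 23864381 counts, of which mitochondrially encoded genes took 4.27% to 4.90%. Control replicate 3 stood apart from the other control libraries: a chi-square comparison of counts over genes gave 49.2 and 45.4 per degree of freedom against control replicates 1 and 2, and 5.15 between those. In it, 69 of 79 ribosomal protein genes were above the mean of the other controls, with a median log2 difference of 0.26, while the median over all 18437 rows tested was -0.01. The 9 listed markers of monocytic lines were all present and did not move as 1: 5 rose and 3 fell with PKM2-knockdown ectosomes against control, 6 rose and none fell against scramble ectosomes, and 3 rose and 5 fell with scramble ectosomes against control. Of all rows tested, 27% rose and 26.7% fell in the first of these comparisons. The shares were 31.4% and 30.3% in the second and 34.6% and 33.2% in the last. CSF1R, the receptor for a macrophage growth factor, rose at every step, while LYZ, lysozyme, and CEBPA, a myeloid transcription factor, fell with either kind of ectosomes against control. Per 1e+06 library counts, the markers summed to 1842 to 1921 with PKM2-knockdown ectosomes. The sums were 1163 to 1178 with scramble ectosomes and 1050 to 1133 in control cells. These sums, and those of hepatocyte transcripts below, used library totals without TMM factors. CPM of single genes, given below, are counts per 1e+06 library counts, scaled between libraries by TMM.

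The share of a library taken by the ribosomal protein genes was lowest with PKM2-knockdown ectosomes and highest in control cells. The 80 genes took 4.31%, 4.45% and 4.70% of all counts with PKM2-knockdown ectosomes, 5.36%, 5.65% and 5.84% with scramble ectosomes and 7.99%, 7.54% and 8.56% in control cells. No library of a group overlapped another group. The means were 4.49% ± 0.198 with PKM2-knockdown ectosomes, 5.62% ± 0.238 with scramble ectosomes and 8.03% ± 0.511 in control cells (SD, n = 3 each). The mean share was thus 1.79-fold lower with PKM2-knockdown ectosomes and 1.43-fold lower with scramble ectosomes than in control cells, and 1.25-fold lower with PKM2-knockdown than with scramble ectosomes. These shares need no scaling factor, but a share falls alike when ribosomal protein mRNA declines and when other mRNA increases. In bulk RNA, fewer cells of a type and less RNA per cell cannot be told apart.

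Both subunits followed this order. Proteins of the 60S subunit took 2.69% ± 0.116 of the counts with PKM2-knockdown ectosomes, 3.36% ± 0.147 with scramble ectosomes and 4.73% ± 0.290 in control cells. Those of the 40S subunit took 1.80% ± 0.0814, 2.26% ± 0.0910 and 3.30% ± 0.222 in the same groups (SD, n = 3 each). The ratio of 60S to 40S counts was 1.49 in both ectosome groups and 1.43 in control cells. Among the 200 rows with the most counts, 33, 34 and 38 were ribosomal protein genes with PKM2-knockdown ectosomes, 41, 44 and 46 with scramble ectosomes and 60, 57 and 61 in control cells.

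**Figure D1:**
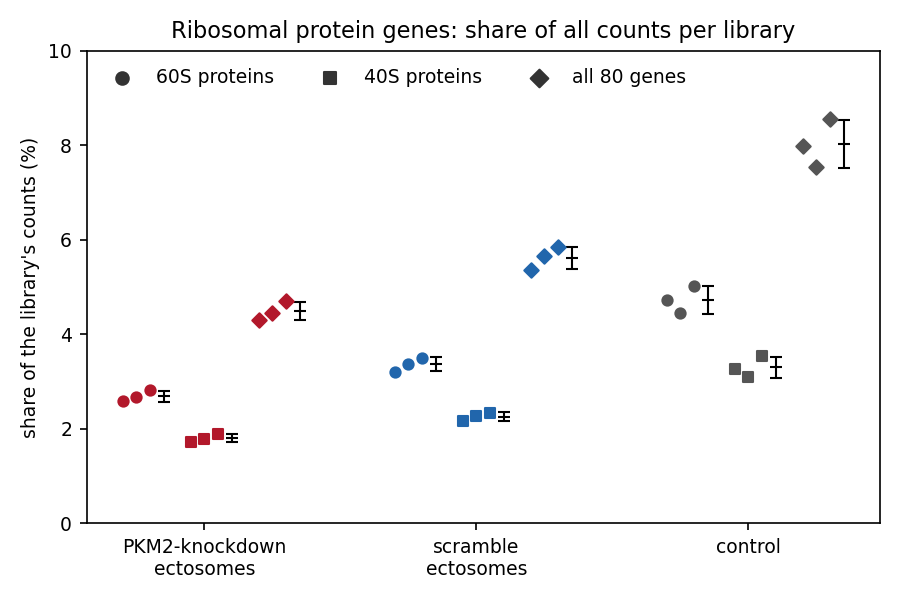
Share of each library's counts (%, vertical axis) taken by 60S proteins, 40S proteins and all 80 genes in the 3 groups, with 1 point per library and bars for mean and SD (n = 3). The shares of all 80 genes lie between 4.31% and 4.70% with PKM2-knockdown ectosomes, 5.36% and 5.84% with scramble ectosomes and 7.54% and 8.56% in control cells.

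Of the 80 genes, 79 had enough counts to be tested with edgeR's quasi-likelihood test, in which p-values were adjusted by the Benjamini-Hochberg method over all 18437 rows and 0.05 was the threshold. The exception was RPL3L, the muscle form of RPL3, with 7, 7 and 3 counts with PKM2-knockdown ectosomes, 0, 2 and 0 counts with scramble ectosomes and 8, 2 and 4 counts in control cells. With PKM2-knockdown ectosomes, 74 of the 79 genes fell and none rose relative to control cells, and the median log2 fold change was -0.78. Of all rows tested, 26.7% fell and 27% rose in that comparison (53.7% either way), with a median of -0.01. In 74 genes every library with PKM2-knockdown ectosomes lay below every control library, and in none did every one lie above, against 29.8% and 30.7% of all rows. At least 2-fold falls were seen in 10 of the 79 genes, against 7.22% of all rows. The falls took in 45 of 47 tested 60S genes (median -0.78) and 29 of 32 40S genes (median -0.84).

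Relative to scramble ectosomes, PKM2-knockdown ectosomes gave falls in 68 of the 79 genes and rises in none, with a median of -0.52. Over all rows, 30.3% fell and 31.4% rose (61.6% either way), and the median was 0.03. All libraries with PKM2-knockdown ectosomes lay below all with scramble ectosomes in 74 genes and above them in 1, RPL17, against 37.1% and 37.4% of all rows. One gene, RPS12, fell at least 2-fold, beside 10.8% of all rows. The fall was 42 of 47 genes in the 60S subunit (median -0.48) and 26 of 32 in the 40S subunit (median -0.56).

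Scramble ectosomes gave falls in 44 of the 79 genes relative to control cells, a rise in 1, RPL10, and no call in 34. The median was -0.31, beside -0.01 over all rows, of which 33.2% fell and 34.6% rose (67.8% either way). The scramble-ectosome libraries lay wholly below the control libraries in 46 genes and wholly above them in 1, against 34.6% and 36.7% of all rows. No gene fell as much as 2-fold, beside 18.5% of all rows. By subunit, 28 of 47 60S genes fell (median -0.31) and 16 of 32 40S genes (median -0.33). This comparison depended most on the scaling and on single libraries. Scaled by library totals alone, 71 genes fell and none rose, with a median of -0.51, in a fit where the median of all rows was -0.21 and the share of rises among all calls was 40.2%, against 51.0% with TMM. Without scramble replicate 1, 28 genes fell. The calls of falls that held in all 17 alternative fits numbered 28 of 44 here, 51 of 68 for PKM2-knockdown against scramble ectosomes and 72 of 74 for PKM2-knockdown ectosomes against control.

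In 71 of the 79 genes, each of the 3 libraries with PKM2-knockdown ectosomes lay below all 6 other libraries, a pattern met by 13.2% of all rows tested. RPL17, RPL28, RPL36A, RPS3, RPS10, RPS26 and RPS27L are among those that did not show it. Relative to the mean of the control libraries, the median gene stood at log2 values of -0.89, -0.81 and -0.73 in the libraries with PKM2-knockdown ectosomes, -0.38, -0.28 and -0.23 in those with scramble ectosomes and -0.02, -0.15 and 0.17 in control libraries. Of 14 hepatocyte transcripts listed, 7 are in the table, with summed levels of 42.6 to 49.2 CPM with PKM2-knockdown ectosomes, 5.89 to 6.83 CPM with scramble ectosomes and 3.72 to 9.39 CPM in control cells. With PKM2-knockdown ectosomes most of the sum came from SERPINA1, a secreted protease inhibitor that monocytic cells also make. SERPINA1 had 705, 770 and 791 counts with PKM2-knockdown ectosomes, 66, 70 and 82 with scramble ectosomes and 32, 88 and 10 in control cells. APOA2 was also highest with PKM2-knockdown ectosomes, at 108, 88 and 96 counts, beside 66, 45 and 31 with scramble ectosomes and 36, 56 and 17 in control cells. Albumin (ALB) had 10, 7 and 10 counts with PKM2-knockdown ectosomes, 2, 2 and 3 counts with scramble ectosomes and 2, 4 and 1 counts in control cells, and TTR had 0 counts with PKM2-knockdown ectosomes, 4, 3 and 0 counts with scramble ectosomes and 0 counts in control cells. Others went the opposite way: APOA1 had 3, 2 and 0 counts with PKM2-knockdown ectosomes, 9, 3 and 4 counts with scramble ectosomes and 12, 13 and 15 counts in control cells, and VTN had 1, 2 and 2 counts, 12, 8 and 10 counts and 2, 11 and 5 counts in the same groups. Their part in the ribosomal protein values, and that of the monocytic markers, was not tested.

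**Figure D2:**
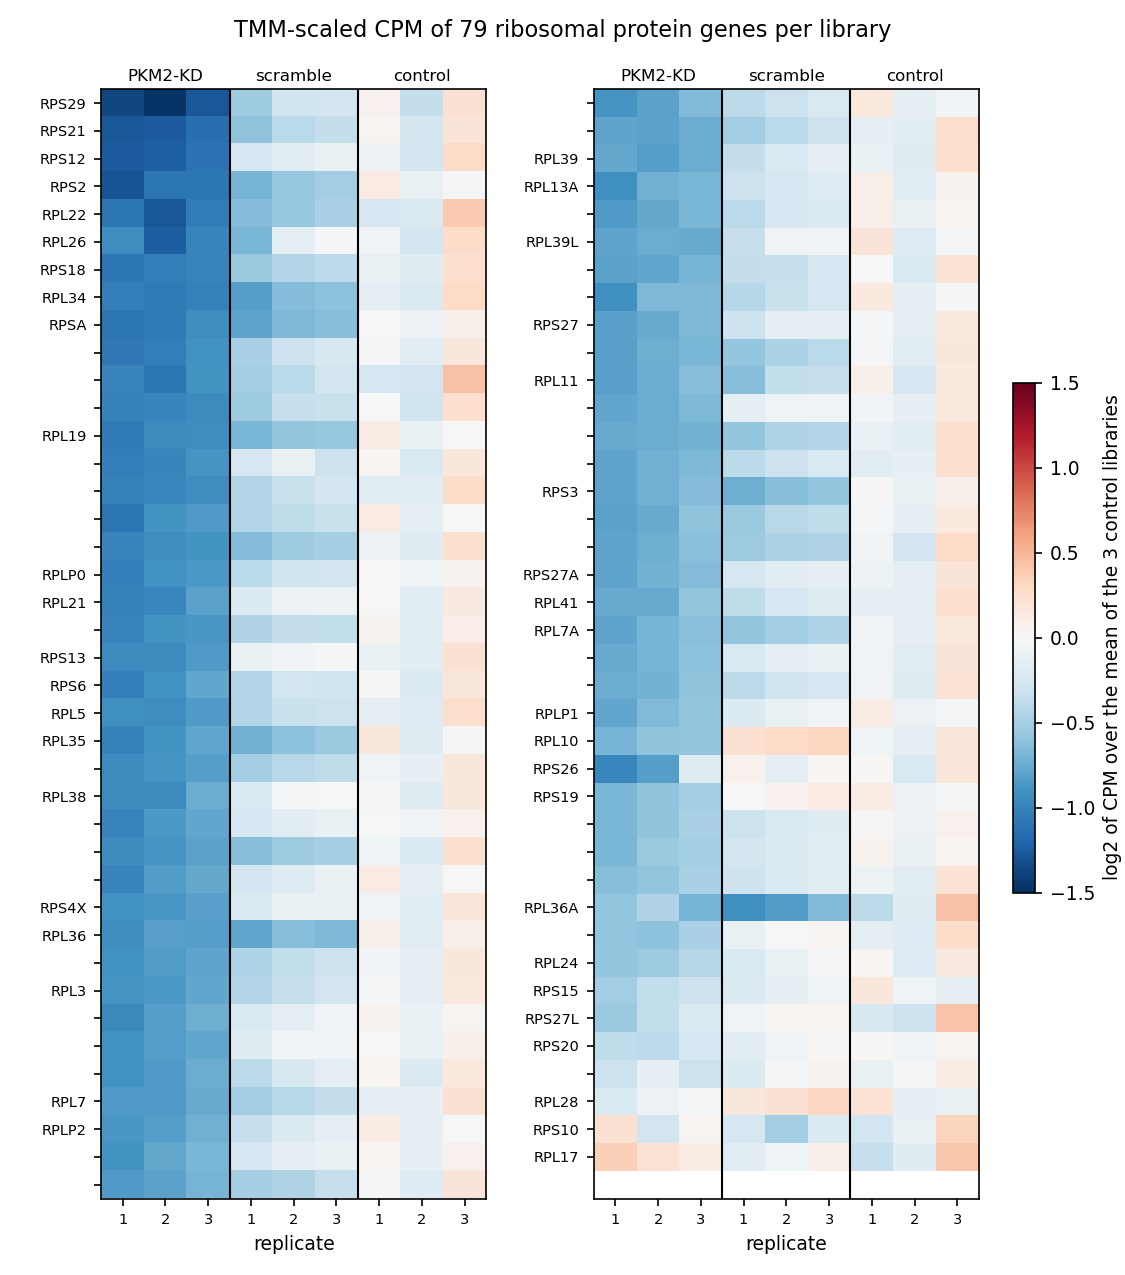
Log2 of TMM-scaled CPM over the mean of the 3 control libraries (colour) for the 79 tested genes (rows, some of them labelled, ordered by the fold change of PKM2-knockdown ectosomes over control) in each of the 9 libraries (columns). The libraries with PKM2-knockdown ectosomes are the lowest in 71 genes, and RPL10 is the only gene called higher with scramble ectosomes than in control cells.

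The annotated starts of these genes show the feature that the TOP class is named for. Of the 63 genes found in the RefSeq promoter table (GRCh38.p14), 46 (73.0%) had a start at which a cytosine is followed by at least 4 pyrimidines without a break, against 5.14% of the 27305 genes of that table. The sequences below run 5′ to 3′ on the gene's strand from 40 bases before the start to 20 bases from it onward, the pyrimidine run in capitals. They are the genes of strong falls (RPS12, RPS21, RPL22, RPSA), those that left the common course (RPL10, RPL28, RPS3), and RPS29 and RPS27L, at whose annotated start no such run was found. Where RefSeq gives several starts, as for RPL10, the one with the run is shown.
RPS12, chr6:132814529-132814588, plus strand: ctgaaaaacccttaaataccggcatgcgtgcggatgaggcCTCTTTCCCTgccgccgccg
RPS21, chr20:62387063-62387122, plus strand: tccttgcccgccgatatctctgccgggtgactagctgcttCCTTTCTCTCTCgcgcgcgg
RPL22, chr1:6199576-6199635, minus strand: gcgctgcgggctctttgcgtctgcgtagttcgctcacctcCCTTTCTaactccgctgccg
RPSA, chr3:39406680-39406739, plus strand: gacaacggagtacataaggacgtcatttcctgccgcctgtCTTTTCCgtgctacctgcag
RPS3, chr11:75399478-75399537, plus strand: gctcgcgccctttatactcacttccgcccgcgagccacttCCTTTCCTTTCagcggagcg
RPL10, chrX:154398337-154398396, plus strand: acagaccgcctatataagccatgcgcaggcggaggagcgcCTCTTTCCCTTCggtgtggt
RPL28, chr19:55385892-55385951, plus strand: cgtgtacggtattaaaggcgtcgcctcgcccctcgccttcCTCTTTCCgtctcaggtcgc
RPS29, chr14:49598691-49598750, minus strand: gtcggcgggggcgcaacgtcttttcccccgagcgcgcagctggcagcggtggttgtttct
RPS27L, chr15:63157458-63157517, minus strand: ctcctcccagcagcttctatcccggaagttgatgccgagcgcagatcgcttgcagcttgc

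Falls were found among genes with an annotated TOP start and among those without, in each comparison at a higher share than the 26.7%, 30.3% and 33.2% of all rows given above. In PKM2-knockdown ectosomes against control, 44 of the 46 genes with one fell (median log2 fold change -0.84), and 15 of the 17 genes without one fell, with a median of -0.74. Against scramble ectosomes the falls were 39 of 46, with a median of -0.55, and 14 of 17, with a median of -0.41. For scramble ectosomes against control they were 25 of 46, with a median of -0.29, and 9 of 17, with a median of -0.32, and with library totals 43 of 46 and 14 of 17. RPS29, the gene that fell most with PKM2-knockdown ectosomes against control, is among those without a run at the annotated start, and RPL10, RPL28 and RPS3, which stood apart from the others, carry runs of 12, 8 and 11 pyrimidines. No entry was found for the other 17 genes. The class without a TOP start rests on the single annotated start base. Some of its genes, such as RPS28 and RPL10A, have a pyrimidine run just downstream of that base. Genes of this class may therefore still make TOP mRNAs, and the comparison does not set TOP against other mRNAs.

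Among the 40S proteins, RPS29, RPS21 and RPS12 had the largest falls with PKM2-knockdown ectosomes. RPS29 (chromosome 14, 49570984 to 49599164 on GRCh38, GENCODE release 29) encodes a small zinc-binding protein of the 40S head. Its level was 238, 220.0 and 253 CPM with PKM2-knockdown ectosomes, 421, 498 and 502 CPM with scramble ectosomes and 637, 479 and 719 CPM in control cells. The libraries with PKM2-knockdown ectosomes lay below all others, whereas those of the scramble and control groups overlapped. The log2 fold change was -1.37 ± 0.14 (SE) against control, a 2.58-fold fall (edgeR adjusted p = 1.77e-05), and the fall against scramble ectosomes was just under 2-fold (adjusted p = 0.000114). RPS21 (chromosome 20, 62387116 to 62388520), a small 40S protein found in eukaryotes and not in bacteria, measured 222, 226 and 244 CPM with PKM2-knockdown ectosomes, 353, 404 and 418 CPM with scramble ectosomes and 551, 441 and 611 CPM in control cells. Here the 3 groups were fully separate, and the fall against control was 2.32-fold (log2 -1.21 ± 0.12, adjusted p = 1.37e-05).

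RPS12 (chromosome 6, 132814441 to 132817564), a protein of the beak of the 40S head, showed 222, 227 and 246 CPM with PKM2-knockdown ectosomes, 445, 472 and 493 CPM with scramble ectosomes and 503, 438 and 644 CPM in control cells. Control and scramble-ectosome libraries overlapped and did not pass the test (log2 -0.17 ± 0.13, adjusted p = 0.254), so that nearly the whole difference lay between the ectosome groups, at log2 -1.02 ± 0.13 (adjusted p = 4.86e-05), the largest fall of that comparison. RPS13, which binds rRNA in the 40S body, had the same course, with 359 ± 14.4 CPM with PKM2-knockdown ectosomes, 652 ± 18.7 CPM with scramble ectosomes and 675 ± 103 CPM in control cells (SD, n = 3 each). It fell by log2 -0.86 ± 0.10 between the ectosome groups, and scramble ectosomes gave -0.05 ± 0.10 against control (adjusted p = 0.682), which passed with library totals (log2 -0.25, adjusted p = 0.0252).

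RPSA and RPS3 took their larger step between control and scramble ectosomes. RPSA, a protein of the 40S head-body junction also described as a laminin receptor at the cell surface, had 594, 611 and 669 CPM with PKM2-knockdown ectosomes, 739, 800.4 and 820.5 CPM with scramble ectosomes and 1284, 1198 and 1341 CPM in control cells. It fell 1.62-fold with scramble ectosomes against control (log2 -0.70 ± 0.08, adjusted p = 2.61e-05). A further 1.26-fold fall separated PKM2-knockdown from scramble ectosomes (adjusted p = 0.00515), a call that ended when libraries were scaled by their totals (adjusted p = 0.0723). RPS3, which lines the mRNA entry channel and also has a role in DNA repair, stood at 1169.8, 1225 and 1287 CPM with PKM2-knockdown ectosomes, 1214, 1294 and 1347 CPM with scramble ectosomes and 2042, 1886 and 2140.2 CPM in control cells. Its scramble-ectosome libraries lay below control by 1.57-fold (adjusted p = 3.74e-05). The 2 ectosome groups overlapped, with a log2 difference of -0.07 ± 0.08 that did not pass the test (adjusted p = 0.499) and that was 0.11 with library totals and 0.05 with upper quartile scaling. RPS18, of the 40S head, and RPS2 had steps of similar size. RPS18 averaged 1497 ± 39.3 CPM with PKM2-knockdown ectosomes, 2235 ± 126 CPM with scramble ectosomes and 3076 ± 513 CPM in control cells, falling 1.38-fold with scramble ectosomes against control and 1.49-fold with PKM2-knockdown against scramble ectosomes (adjusted p = 0.00355 and 0.00103). RPS2, at the entry channel beside RPS3, fell at both steps, with levels of 908, 1047 and 1053 CPM with PKM2-knockdown ectosomes, 1379, 1507 and 1556 CPM with scramble ectosomes and 2436, 2071 and 2198 CPM in control cells and a 2.23-fold fall between the outer groups (adjusted p = 3.75e-06).

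RPS6, the substrate of S6 kinase through which mTORC1 activity is often read, averaged 1024 ± 86.4 CPM with PKM2-knockdown ectosomes, 1511 ± 82.3 CPM with scramble ectosomes and 1913 ± 250.1 CPM in control cells (SD, n = 3 each). It fell 1.87-fold with PKM2-knockdown ectosomes against control (adjusted p = 5.17e-05) and 1.48-fold against scramble ectosomes (adjusted p = 0.00101). For scramble ectosomes against control the fall was 1.27-fold (adjusted p = 0.0157) and was no longer called without scramble replicate 1 (adjusted p = 0.0718). RPS19, the gene most often mutated in Diamond-Blackfan anaemia, averaged 705 ± 42.4 CPM with PKM2-knockdown ectosomes, 1119 ± 46.8 CPM with scramble ectosomes and 1067 ± 80.6 CPM in control cells. It fell with PKM2-knockdown ectosomes against scramble ectosomes (log2 -0.67 ± 0.08, adjusted p = 5.85e-05) and against control (log2 -0.60 ± 0.08, adjusted p = 0.000166), and the estimate for scramble ectosomes against control was 0.07 ± 0.08 (adjusted p = 0.494), turning to -0.14 with library totals. RPS4X, whose gene lies on the X chromosome, and RPS27A, made as a fusion with ubiquitin, both fell in the comparisons that involve PKM2-knockdown ectosomes. Their log2 fold changes were, in that order, -0.72 and -0.52 against scramble ectosomes and -0.86 and -0.71 against control. For scramble ectosomes against control they were -0.14 and -0.19 and did not pass, although both passed when scaled by library totals (adjusted p = 0.00259 and 0.00141).

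Of the 60S proteins, RPL22, RPL34 and RPL26 fell most with PKM2-knockdown ectosomes against control. RPL22 (chromosome 1, 6185020 to 6209389) is not essential for translation in mice, where its loss blocks development of T lymphocytes. Its level was 110.3, 97.6 and 113 CPM with PKM2-knockdown ectosomes, 149.8, 159 and 168 CPM with scramble ectosomes and 195, 201 and 308 CPM in control cells. No group overlapped another, the fall against control being 2.19-fold (log2 -1.13 ± 0.16, adjusted p = 0.000146), and control replicate 3 was well above the other control libraries. RPL34, a protein of the 60S surface, averaged 233 ± 3.54 CPM with PKM2-knockdown ectosomes, 295 ± 22.5 CPM with scramble ectosomes and 477 ± 94.8 CPM in control cells and fell 1.62-fold with scramble ectosomes against control (adjusted p = 0.000535) and 1.27-fold with PKM2-knockdown against scramble ectosomes (adjusted p = 0.0332). The second call ended with library totals (adjusted p = 0.200), with upper quartile factors and without any one of 5 ectosome libraries, all but scramble replicate 1 (adjusted p up to 0.103). RPL36, also on the 60S surface, was 197, 214 and 212 CPM with PKM2-knockdown ectosomes, 219.9, 243 and 236 CPM with scramble ectosomes and 396, 335 and 399.7 CPM in control cells. Its scramble-ectosome libraries were 1.62-fold below control (adjusted p = 4.41e-05), and between the ectosome groups it had a log2 difference of -0.16 ± 0.09 (adjusted p = 0.131).

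RPL35 and RPL19, which sit near the exit of the peptide tunnel and on the 60S surface, fell 1.55-fold and 1.53-fold with scramble ectosomes against control (adjusted p = 0.000292 and 7.04e-05). RPL35 averaged 510.1 ± 42.1 CPM with PKM2-knockdown ectosomes, 613 ± 35.5 CPM with scramble ectosomes and 948 ± 116 CPM in control cells, and RPL19 averaged 652 ± 31.4 CPM with PKM2-knockdown ectosomes, 844 ± 37.9 CPM with scramble ectosomes and 1289 ± 97.2 CPM in control cells. RPL38 and RPL21 had their larger step between the ectosome groups. RPL38, whose loss in mice alters translation of Hox mRNAs and the pattern of vertebrae, averaged 209.9 ± 18.3 CPM with PKM2-knockdown ectosomes, 366 ± 31.7 CPM with scramble ectosomes and 387 ± 46.8 CPM in control cells and fell 1.74-fold with PKM2-knockdown against scramble ectosomes (adjusted p = 9.86e-05). Its estimate for scramble ectosomes against control was -0.08 ± 0.11 (adjusted p = 0.525). RPL21 fell 1.75-fold between the ectosome groups (adjusted p = 3.88e-05), with -0.12 ± 0.10 for scramble ectosomes against control (adjusted p = 0.269). With library totals the falls of both against control passed (log2 -0.28 for RPL38 and -0.33 for RPL21, adjusted p = 0.0197 and 0.00427). RPL26, at the rim of the peptide exit tunnel, averaged 26.4 ± 2.93 CPM with PKM2-knockdown ectosomes, 45.6 ± 10.3 CPM with scramble ectosomes and 54.5 ± 10.6 CPM in control cells, with an overlap of scramble and control libraries, and its row shares exon bases with another gene.

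RPL10 took a course of its own. Its protein joins the 60S subunit in the last steps of maturation, and it is mutated in some T-cell leukaemias. RPL10 (chromosome X, 154389955 to 154409168) had 533, 569 and 574 CPM with PKM2-knockdown ectosomes, 1013, 1062 and 1082 CPM with scramble ectosomes and 829, 783 and 979 CPM in control cells. All scramble-ectosome libraries lay above all control libraries, and all PKM2-knockdown-ectosome libraries lay below both. It rose 1.22-fold with scramble ectosomes against control (log2 0.29 ± 0.09, adjusted p = 0.018) and fell 1.88-fold with PKM2-knockdown against scramble ectosomes (log2 -0.91 ± 0.09, adjusted p = 1.2e-05). The rise was not called with library totals (log2 0.08, adjusted p = 0.352), with upper quartile scaling (adjusted p = 0.0751), with only the 2 groups in the fit (adjusted p = 0.0704), or without control replicate 1, control replicate 2 or scramble replicate 3 (adjusted p = 0.0554, 0.0683 and 0.0559). Of its exon bases, 52.7% are shared with DNASE1L1 on the opposite strand, and without a stated strand setting the reads of the pair cannot be told apart. DNASE1L1, a deoxyribonuclease-like gene, averaged 17.0 ± 1.01 CPM with PKM2-knockdown ectosomes, 10.4 ± 1.03 CPM with scramble ectosomes and 11.2 ± 1.9 CPM in control cells, rose with PKM2-knockdown against scramble ectosomes (log2 0.71, adjusted p = 0.00123) and had an estimate of -0.11 for scramble ectosomes against control (adjusted p = 0.507).

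RPLP0, RPLP1 and RPLP2 form the stalk that recruits elongation factors. RPLP0, often used to normalise quantitative PCR, had 992, 1083 and 1118 CPM with PKM2-knockdown ectosomes, 1537, 1651 and 1674 CPM with scramble ectosomes and 2026, 1946 and 2111 CPM in control cells, with no overlap between groups. It fell 1.9-fold with PKM2-knockdown ectosomes against control (log2 -0.93 ± 0.08, adjusted p = 5.02e-06). RPLP1 and RPLP2 fell 1.6-fold and 1.75-fold in that comparison (adjusted p = 7.83e-05 and 3.15e-05). Between the ectosome groups the 3 stalk genes fell by similar amounts, with log2 fold changes of -0.61, -0.56 and -0.57. For scramble ectosomes against control, RPLP0 fell 1.25-fold (adjusted p = 0.00391), RPLP1 did not pass (-0.12, adjusted p = 0.227), and the call of RPLP2 (-0.24, adjusted p = 0.0363) ended without any one of control replicate 1, scramble replicate 1, scramble replicate 2 or PKM2-knockdown replicate 2 (adjusted p = 0.118, 0.162, 0.0849 and 0.0656).

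RPL5 and RPL11 carry the 5S ribosomal RNA into the 60S subunit and, when unassembled, bind the ubiquitin ligase MDM2. RPL5 averaged 886 ± 29.3 CPM with PKM2-knockdown ectosomes, 1285 ± 55.0 CPM with scramble ectosomes and 1652 ± 292 CPM in control cells, and RPL11 averaged 581 ± 35.9 CPM with PKM2-knockdown ectosomes, 711 ± 76.7 CPM with scramble ectosomes and 968 ± 143 CPM in control cells (SD, n = 3 each). Both fell with PKM2-knockdown ectosomes against control, by 1.86-fold and 1.66-fold (adjusted p = 7.81e-05 and 0.000455). Between the ectosome groups RPL5 fell 1.45-fold (adjusted p = 0.00192), and RPL11 had a log2 difference of -0.29 ± 0.12 just short of the threshold (adjusted p = 0.0565), which passed with DESeq2's Wald test (adjusted p = 0.0460). With scramble ectosomes both fell against control (log2 -0.36 and -0.45), and the call of RPL5 ended without scramble replicate 1 (adjusted p = 0.0637). RPL3, which contacts the peptidyl transferase centre, fell at every step, averaging 1236 ± 47.9 CPM with PKM2-knockdown ectosomes, 1733 ± 96.1 CPM with scramble ectosomes and 2216 ± 233 CPM in control cells. RPL13A, which besides its place in the ribosome acts in silencing of inflammatory mRNAs in interferon-treated monocytes, averaged 1605 ± 135 CPM with PKM2-knockdown ectosomes, 2297 ± 99.8 CPM with scramble ectosomes and 2743 ± 244 CPM in control cells. Its falls with PKM2-knockdown ectosomes were 1.71-fold against control and 1.43-fold against scramble ectosomes (adjusted p = 6.08e-05 and 0.000728). Its call for scramble ectosomes against control (log2 -0.26, adjusted p = 0.0324) ended in 5 fits that left out 1 library, without control replicate 1, each of the 3 scramble replicates or PKM2-knockdown replicate 2, with adjusted p of 0.0550 to 0.12. RPL41, the smallest protein of the ribosome, fell by log2 -0.70 against control and -0.43 against scramble ectosomes. Its estimate for scramble ectosomes against control was -0.27 ± 0.12 (adjusted p = 0.0572).

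Of the 5 genes not called in PKM2-knockdown ectosomes against control, RPL28 had by far the most reads. RPL28, a 60S protein that bacteria and budding yeast lack, had 475, 525 and 544 CPM with PKM2-knockdown ectosomes, 626, 649.6 and 691 CPM with scramble ectosomes and 646, 506 and 517 CPM in control cells. PKM2-knockdown-ectosome and control libraries overlapped (log2 -0.11 ± 0.10, adjusted p = 0.388), and between the ectosome groups it fell 1.27-fold (adjusted p = 0.0139), a call that ended with library totals (adjusted p = 0.143), with upper quartile factors (0.0639) and without PKM2-knockdown replicate 1 or scramble replicate 3 (0.0616 and 0.0539). The estimate for scramble ectosomes against control was 0.24 ± 0.10 (adjusted p = 0.0675), and it was called higher without control replicate 1 (log2 0.35, adjusted p = 0.00621). RPS10 and RPL17 had at most 6.84 and 17.9 CPM in any library, and RPS27L at most 43.4 CPM. RPS10, a 40S head protein marked by ubiquitin when ribosomes collide, shares 39.4% of its exon bases with a read-through gene on the same strand, RPS10-NUDT3, and its numbered pseudogene rows held 406% of its own count. RPL17, at the rim of the peptide exit tunnel, likewise overlaps a read-through gene, and reads of both genes may have been left uncounted or exchanged. Their log2 estimates against control were 0.01 ± 0.20 and 0.24 ± 0.18, uncertain for that reason, and RPL17 was called higher without control replicate 3 (log2 0.49, adjusted p = 0.00129). RPS26, at the mRNA exit channel, is not among these 5 genes and was called lower, but it was uneven within a group. It had 73.4, 82.1 and 128 CPM with PKM2-knockdown ectosomes, 152, 132 and 148 CPM with scramble ectosomes and 147, 124 and 164 CPM in control cells, and replicate 3 of the PKM2-knockdown ectosomes lay among the controls.

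Counting each gene against the summed counts of all 80 shows which members left the common course, whatever the scaling between libraries. In this fit most genes stayed within 0.25 log2 units of the members together: 64 of 79 in PKM2-knockdown ectosomes against control, 60 in PKM2-knockdown against scramble ectosomes and 63 in scramble ectosomes against control. Against control, PKM2-knockdown ectosomes set 13 genes above the members together and 8 below, beside 67.9% and 4.04% of all rows tested. Against scramble ectosomes the numbers were 13 above and 12 below, beside 52.3% and 12.3% of all rows, and for scramble ectosomes against control 12 above and 11 below, beside 43.7% and 22.8%. Leaving out control replicate 3 raised these to 21 and 11, 27 and 19, and 20 and 12. Of the calls, 12 of 21, 13 of 25 and 12 of 23 in the same order held in every alternative fit.

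Below the others with PKM2-knockdown ectosomes lay RPS29 (relative log2 -0.55 ± 0.10 against control, adjusted p = 0.000572), RPS21 (-0.40, adjusted p = 0.00136), RPS12 (-0.37, adjusted p = 0.00309) and RPS2 (-0.35, adjusted p = 0.00417), all of the 40S subunit. These were the 4 calls below the members that held in every alternative. Above the others lay RPL28 (relative log2 0.69 ± 0.11, adjusted p = 0.000199), RPS20 (0.46, adjusted p = 0.000313), RPS15 (0.40, adjusted p = 0.00725) and RPL24 (0.30, adjusted p = 0.00391). RPS20 and RPS15 are proteins of the 40S head, and RPL24 forms a bridge between the subunits. RPS20 itself fell 1.27-fold against control, less than the median gene. RPL17 and RPS10 were also called above, on few reads, and the call of RPS10 was lost when pseudogene reads were added (relative log2 0.19, adjusted p = 0.203).

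Several genes changed place between the 2 steps. With scramble ectosomes against control, RPL10 (relative log2 0.60 ± 0.07, adjusted p = 3.51e-05), RPL28 (0.54, adjusted p = 0.00113) and RPS19 (0.37, adjusted p = 0.00314) stood above the members together. RPSA (-0.39, adjusted p = 0.000803), RPL36 (-0.38, adjusted p = 0.00139), RPL34 (-0.37, adjusted p = 0.00471) and RPS3 (-0.34, adjusted p = 0.00132) stood below. With PKM2-knockdown against scramble ectosomes, RPS3 (0.43 ± 0.07, adjusted p = 0.000348), RPL36 (0.33, adjusted p = 0.00376) and RPL7A (0.32, adjusted p = 0.00256) were above. RPS12 (-0.53, adjusted p = 0.000411), RPS29 (-0.50, adjusted p = 0.00135), RPL10 (-0.42, adjusted p = 0.000607) and RPS13 (-0.37, adjusted p = 0.00231) were below. Both comparisons share the scramble-ectosome libraries, so opposite signs of a gene in them are not independent. Each call named for these steps held in every alternative fit.

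**Figure D3:**
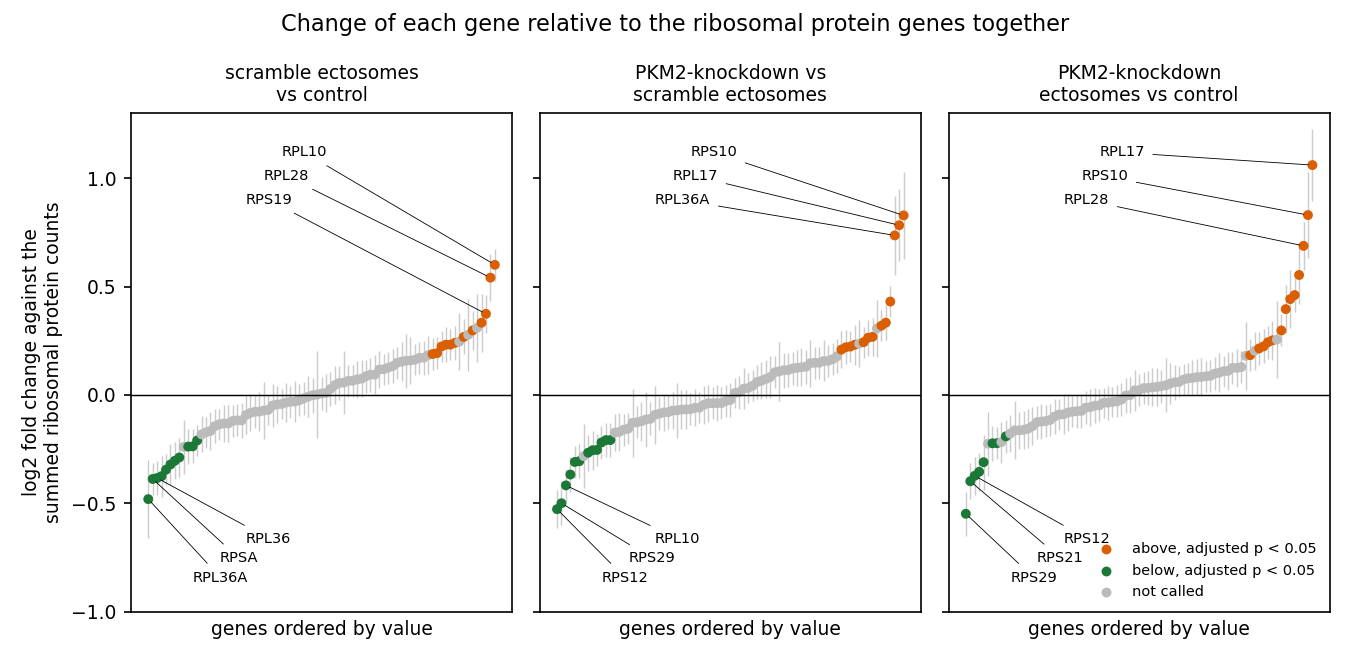
Log2 fold change of each of the 79 genes (points, ordered by value within a panel, with SE bars) against the summed ribosomal protein counts in the 3 comparisons, coloured by call at an adjusted p of 0.05. Most points lie within 0.25 of 0, RPS12, RPS29 and RPS21 are at the low end where PKM2-knockdown ectosomes are compared with control, and RPL10 is at the high end for scramble ectosomes against control and near the low end for PKM2-knockdown against scramble ectosomes.

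Some ribosomal proteins have a paralogue whose reads can be set against those of the canonical gene within a library, with no scaling. With 3 libraries a group the smallest p of the exact two-sided permutation test is 0.1, and none of 21 tests over 7 pairs passed after adjustment (adjusted p of 0.21 or more). These ratios are not corrected for length and are read between groups only. RPL22L1, which can take the place of RPL22 and is known in other cells to increase when RPL22 is lost, was highest against RPL22 with scramble ectosomes. Per 100 RPL22 counts it had 11.0 ± 0.334 with PKM2-knockdown ectosomes, 22.5 ± 0.826 with scramble ectosomes and 8.75 ± 0.457 in control cells (SD, n = 3 each). No library overlapped another group (unadjusted exact permutation p = 0.1 in each comparison). RPL22L1 itself had 12.6, 10.5 and 12.3 CPM with PKM2-knockdown ectosomes, 34.0, 36.8 and 36.2 CPM with scramble ectosomes and 18.1, 16.9 and 26.4 CPM in control cells. In the edgeR fit it rose 1.74-fold with scramble ectosomes against control (adjusted p = 0.000843), where RPL22 fell, and fell 3.02-fold with PKM2-knockdown against scramble ectosomes (adjusted p = 1.04e-05), beside a 1.48-fold fall of RPL22.

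RPL7L1, a nucleolar relative of RPL7 that acts in ribosome assembly, had 28.5 ± 1.22 counts per 100 RPL7 counts with PKM2-knockdown ectosomes, 25.3 ± 0.698 with scramble ectosomes and 19.5 ± 1.26 in control cells, with no overlap. RPS27L, which can replace RPS27, had 3.67 ± 0.247, 3.27 ± 0.0821 and 2.81 ± 0.551 per 100 RPS27 counts in the same groups, the control libraries overlapping those of both ectosome groups. For RPL39L, known from male germ cells, the values per 100 RPL39 counts overlapped throughout, at 4.60 ± 0.177 with PKM2-knockdown ectosomes, 4.84 ± 0.262 with scramble ectosomes and 4.62 ± 0.926 in control cells. RPL26L1 per 100 RPL26 counts overlapped as well, at 47.3 ± 11.2, 36.6 ± 8.41 and 39.9 ± 5.31 in those groups. The canonical RPL7 averaged 977 ± 39.1 CPM with PKM2-knockdown ectosomes, 1276 ± 70.6 CPM with scramble ectosomes and 1721 ± 256 CPM in control cells. RPS27 averaged 675 ± 33.3 CPM with PKM2-knockdown ectosomes, 993 ± 63.9 CPM with scramble ectosomes and 1136 ± 116 CPM in control cells, and RPL39 averaged 257 ± 7.54 CPM with PKM2-knockdown ectosomes, 373 ± 27.5 CPM with scramble ectosomes and 441 ± 72.2 CPM in control cells. These 3 genes fell with PKM2-knockdown ectosomes against control, by log2 -0.82, -0.75 and -0.78 (adjusted p = 8.86e-05, 6.89e-05 and 0.000189). RPL36AL averaged 125 ± 5.73 CPM with PKM2-knockdown ectosomes, 152 ± 12.9 CPM with scramble ectosomes and 152 ± 13.2 CPM in control cells and differed by log2 -0.28 in that comparison (adjusted p = 0.0238), a call that ended without control replicate 1 (adjusted p = 0.0590) or PKM2-knockdown replicate 1 or 2 (0.0641 and 0.106). RPL36A fell with scramble ectosomes against control by log2 -0.80 ± 0.20 (adjusted p = 0.00405), the largest fall of that comparison, but had at most 18.5 CPM in any library and overlaps a read-through gene, so its ratio to RPL36AL is uncertain, and RPL3L had too few reads for one.

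**Figure D4:**
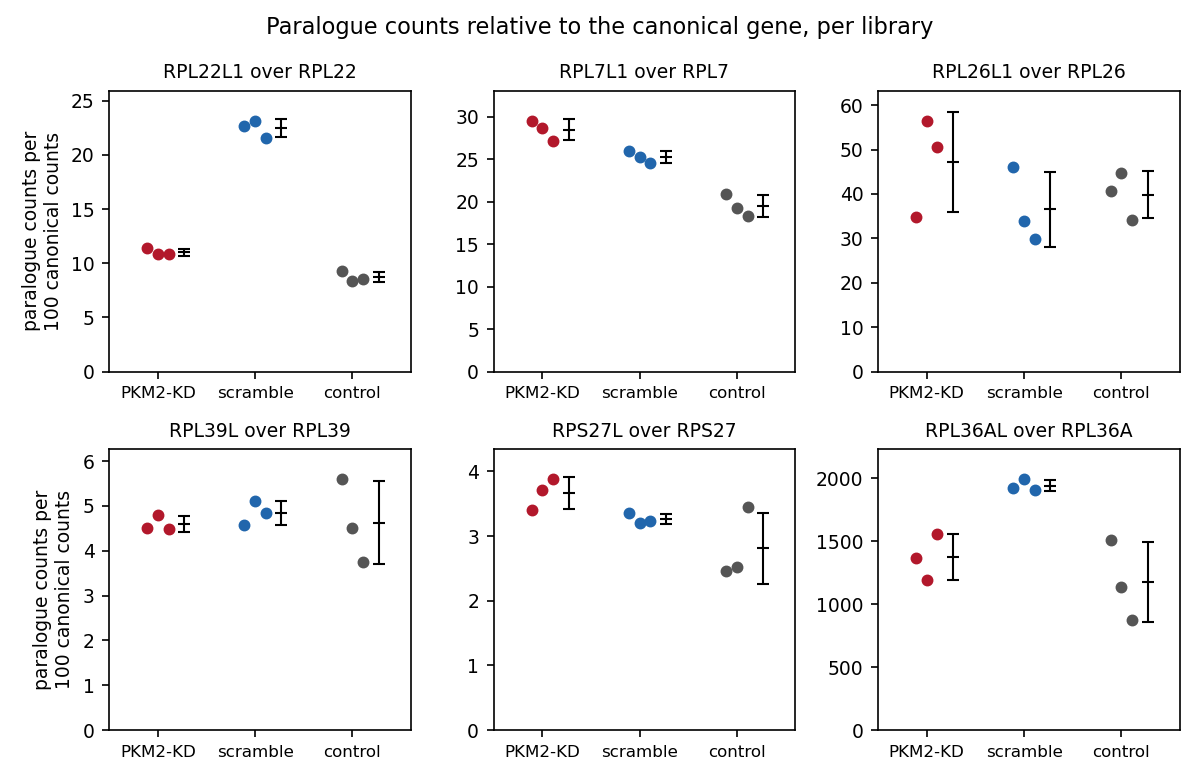
Counts of a paralogue per 100 counts of the canonical gene (vertical axes, starting at 0) in each library (points) of the 3 groups for 6 pairs, with mean and SD (n = 3). The ratio of RPL22L1 to RPL22 is 22.5 with scramble ectosomes, above 11.0 with PKM2-knockdown ectosomes and 8.75 in control cells, while the ratio of RPL39L to RPL39 overlaps between groups.

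The 7 ribosomal proteins and paralogues outside the symbol rule followed the others in part: 7 fell with PKM2-knockdown ectosomes against control, 6 fell against scramble ectosomes, and with scramble ectosomes against control 1 rose (RPL22L1) and 1 fell (RPL26L1, a call that ended without scramble replicate 1, adjusted p = 0.0541). Of all rows, 26.7%, 30.3% and 33.2% fell in these comparisons and 34.6% rose in the last, where both counts lie below that background. With library totals 3 fell in the second and 5 in the last of these comparisons, where 4334 and 7628 of all 18437 rows fell. RACK1, a scaffold on the 40S head, averaged 765 ± 45.5 CPM with PKM2-knockdown ectosomes, 1306 ± 21.4 CPM with scramble ectosomes and 1317 ± 233 CPM in control cells and fell 1.71-fold between the ectosome groups (adjusted p = 0.000187), with an estimate of -0.01 for scramble ectosomes against control (adjusted p = 0.933). FAU, the precursor of RPS30, fell 1.35-fold with PKM2-knockdown against scramble ectosomes (adjusted p = 0.00157).

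Other mRNAs of the TOP class, mostly of translation factors, fell with PKM2-knockdown ectosomes as the ribosomal proteins did. Of 17 tested, 15 fell and none rose with PKM2-knockdown ectosomes against control (median log2 fold change -0.54). Against scramble ectosomes 16 fell and none rose (median -0.52), and with scramble ectosomes against control 3 fell and 5 rose (median -0.11). Of all rows, 26.7%, 30.3% and 33.2% fell and 27%, 31.4% and 34.6% rose in these comparisons, so the last pair of counts lies near or below that background. It also rests on the scaling: with library totals 10 fell and 2 rose, and 11 fell and none rose against scramble ectosomes. EEF1B2, the exchange factor of eEF1A, averaged 193 ± 9.21 CPM with PKM2-knockdown ectosomes, 381 ± 17.9 CPM with scramble ectosomes and 494 ± 54.4 CPM in control cells and fell 2.55-fold against control (adjusted p = 1.09e-06), an estimate passed among the ribosomal proteins by that of RPS29. TPT1, the translationally controlled tumour protein, averaged 631 ± 12.6 CPM with PKM2-knockdown ectosomes, 1461 ± 68.5 CPM with scramble ectosomes and 915 ± 124 CPM in control cells. It rose 1.6-fold with scramble ectosomes against control (adjusted p = 0.000114) and fell 2.32-fold with PKM2-knockdown against scramble ectosomes (adjusted p = 2.51e-06). NAP1L1, a histone chaperone, rose 1.68-fold and fell 1.82-fold in the same comparisons (adjusted p = 6.96e-06 and 4.15e-06). PABPC1, the poly(A)-binding protein, fell 1.6-fold with PKM2-knockdown against scramble ectosomes (adjusted p = 3.11e-05). Its rise with scramble ectosomes against control (log2 0.21, adjusted p = 0.0372) ended in 10 alternatives, library totals among them (adjusted p = 0.954).

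Of 15 genes of the mTORC1 and LARP1 list, 2 rose and 5 fell with PKM2-knockdown ectosomes against control, 5 rose and 6 fell against scramble ectosomes, and 4 rose and 7 fell with scramble ectosomes against control, the rows as a whole having 27% and 26.7%, 31.4% and 30.3%, and 34.6% and 33.2% of rises and falls. With library totals 3 rather than 6 of these regulators fell between the ectosome groups. MYC averaged 95.6 ± 4.7 CPM with PKM2-knockdown ectosomes, 60.4 ± 1.85 CPM with scramble ectosomes and 264 ± 58.0 CPM in control cells. It was 4.36-fold lower with scramble ectosomes than in control cells (log2 -2.13 ± 0.14, adjusted p = 2.23e-07) and rose 1.58-fold with PKM2-knockdown against scramble ectosomes (adjusted p = 0.00129). A link of MYC to the ribosomal protein values was not tested. LARP1 averaged 281 ± 4.94 CPM with PKM2-knockdown ectosomes, 360.4 ± 12.4 CPM with scramble ectosomes and 437 ± 73.3 CPM in control cells and fell with PKM2-knockdown ectosomes against control by 1.55-fold (adjusted p = 0.000567). AKT1S1, an inhibitory subunit of mTORC1, rose 3.09-fold with scramble ectosomes and 3.04-fold with PKM2-knockdown ectosomes against control (adjusted p = 1.6e-05 and 3.6e-05).

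Proteins that escort or watch over ribosomal proteins were tested as well. Of 13 dedicated chaperones and importers, none rose and 6 fell with PKM2-knockdown ectosomes against control, 1 rose and 8 fell against scramble ectosomes, and 4 rose and 3 fell with scramble ectosomes against control, where 34.6% and 33.2% of all rows rose and fell. Of all rows 26.7% fell in the first and 30.3% in the second of these comparisons. GRWD1, the chaperone of RPL3, averaged 32.2 ± 0.487 CPM with PKM2-knockdown ectosomes, 67.4 ± 1.32 CPM with scramble ectosomes and 46.6 ± 2.29 CPM in control cells, rose 1.44-fold with scramble ectosomes (adjusted p = 5.08e-05) and fell 2.09-fold with PKM2-knockdown against scramble ectosomes (adjusted p = 6.12e-07). TNPO1, a nuclear import receptor, likewise rose 2.06-fold and fell 2.05-fold (adjusted p = 3.36e-06 and 5.79e-06), and IPO5, another, fell 1.99-fold with PKM2-knockdown ectosomes against control (adjusted p = 1.13e-05). CDKN1A, an inhibitor of cyclin-dependent kinases, averaged 565 ± 20.5 CPM with PKM2-knockdown ectosomes, 1245 ± 25.4 CPM with scramble ectosomes and 134 ± 69.6 CPM in control cells, and rose 4.22-fold with PKM2-knockdown ectosomes against control (adjusted p = 0.000413). Of 15 ribosome rescue and quality-control genes, 5 rose and 2 fell with PKM2-knockdown ectosomes against control, 1 rose and 6 fell against scramble ectosomes, and 7 rose and 4 fell with scramble ectosomes against control, beside 27% and 26.7%, 31.4% and 30.3%, and 34.6% and 33.2% of all rows. With library totals the counts were 5 and 5, 4 and 3, and 5 and 7. PELO, which splits stalled ribosomes, averaged 16.0 ± 1.22 CPM with PKM2-knockdown ectosomes, 41.1 ± 1.09 CPM with scramble ectosomes and 11.2 ± 0.793 CPM in control cells and rose 3.66-fold with scramble ectosomes against control (adjusted p = 5.08e-08). GTPBP2, known from mouse to act on stalled ribosomes, and RNF10, a ligase that ubiquitinates RPS2 and RPS3, rose 2.78-fold and 2.24-fold in that comparison (adjusted p = 1.15e-06 and 1.87e-06). ANKZF1, which releases peptides from stalled 60S subunits, fell 2.3-fold there and rose 3.53-fold with PKM2-knockdown against scramble ectosomes (adjusted p = 1.73e-05 and 1.45e-06).

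**Figure D5:**
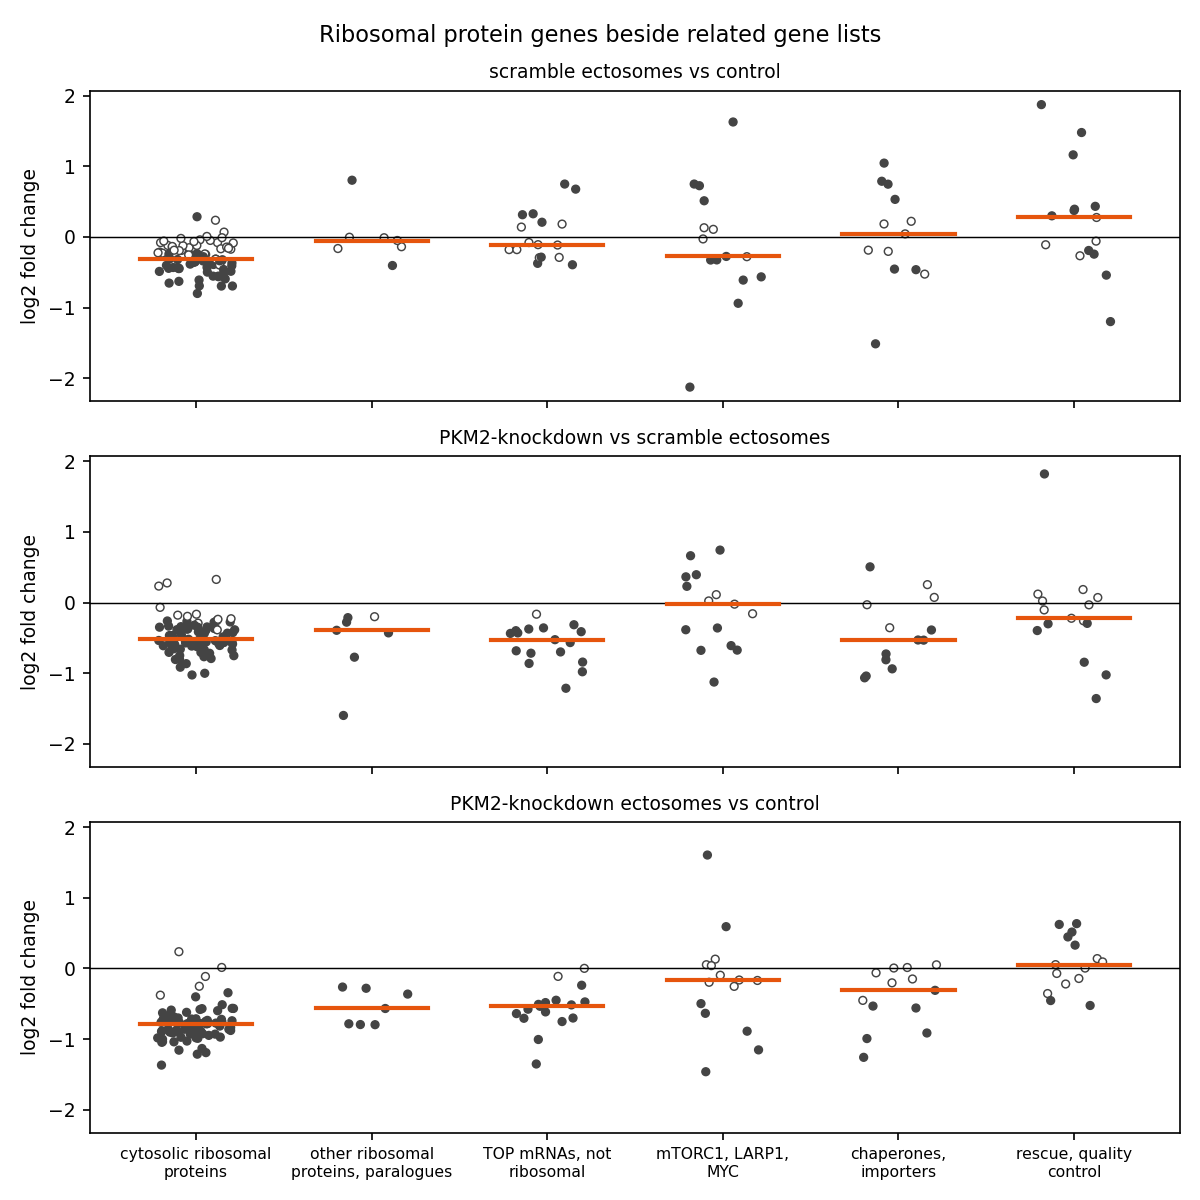
Log2 fold change (vertical axes) of each tested gene (points, filled where adjusted p is below 0.05) in 3 comparisons (panels) for the cytosolic ribosomal proteins and 5 related lists, with the list median as a bar. In PKM2-knockdown against scramble ectosomes the ribosomal proteins (median -0.52) and the other TOP mRNAs (median -0.52) lie together below 0, while genes of mTORC1 and LARP1 control spread on both sides.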

How the data were processed

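Total RNA of THP-1 cells was sequenced on Illumina HiSeq instruments after NEBNext Ultra library preparation from 3 µg of RNA, per the labels' protocols. The deposited table holds whole-number counts per gene made by the authors with HISAT2 2.0.5 and featureCounts 1.5.0-p3 on GRCh38 (hg38), per the submitters' processing notes. Their annotation release, strand setting and treatment of reads with several matches are not stated, so overlapping genes and pseudogenes may exchange reads. No row sums to fewer than 4 counts.

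The counts were fitted with edgeR 4.0.16 in R 4.3.3 (filterByExpr, TMM factors, quasi-likelihood test, group as the only term, all 9 libraries), which tested 18437 rows. P-values were adjusted by the Benjamini-Hochberg method over all of them, and 0.05 was the threshold. Standard errors were derived from the fold change and its F statistic. The filter passed 79 of 80 genes. Levels of single genes are counts per 1e+06 scaled by TMM, and the sums of marker lists use library totals alone. Neither is corrected for length. A second fit took the summed counts of the 80 genes as library size. Ratios of paralogues (pseudocount 0.5) were compared by the exact two-sided permutation test. Gene positions are those of GENCODE release 29 and start sequences those of RefSeq (GRCh38.p14). Depth was 17744587 to 23864381 counts a library. The edgeR fit with TMM factors was tested on simulated counts in which few genes changed, as many up as down. In the data 53.7% to 67.8% of rows were called, so that simulation cannot show how well TMM scaled these libraries.

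The genes, gene lists and tests were chosen with earlier results of these data known. Genes were chosen for description from a fixed set of well-known members, the paralogue pairs, the 8 largest rises and falls past the threshold in each comparison, and up to 4 genes of each list by p-value, of which only some are given. Other members were named after their values were seen, and some genes are not reported here. Alternatives were DESeq2 1.42.0, its size factors, upper quartile factors, library totals, no filter, pseudogene rows added to their parents, only the 2 groups compared, a replicate block and each library left out. For the fit on summed member counts the alternatives were chosen after seeing the data.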

Additional observations from a re-analysis of the deposited data

Results flagged for a closer look

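RPL10 was called in opposite directions against the same control libraries: its log2 fold change was -0.63 with PKM2-knockdown ectosomes and 0.29 with scramble ectosomes. The difference between the ectosome groups was itself tested and was -0.91 (edgeR adjusted p = 1.2e-05). All 3 libraries with PKM2-knockdown ectosomes lay below all 3 with scramble ectosomes.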

How the results depend on the processing

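The falls with PKM2-knockdown ectosomes changed least. The 17 alternative fits are those named with the methods, and the cause of each change below was not tested. With library totals alone, PKM2-knockdown against scramble ectosomes gave 2 rises (RPL17 and RPS10), 52 falls and a median log2 of -0.34, and scramble ectosomes against control gave 0 rises, 71 falls and a median of -0.51. Among all rows, rises then made up 61.9% of calls in the first of these comparisons, against 50.9% with TMM. Upper quartile factors gave a median of -0.41 with 60 falls for PKM2-knockdown against scramble ectosomes, and 0 rises for scramble ectosomes against control, as did a fit of only the 2 groups. For PKM2-knockdown against scramble ectosomes that fit gave 1 rise (RPL17), and a fit with no filter also gave 1 (RPL3L). With the summed member counts as library size, the medians were 0.022 for PKM2-knockdown ectosomes against control (13 above, 8 below), -0.023 for PKM2-knockdown against scramble ectosomes (13 above, 12 below) and 0.00696 for scramble ectosomes against control (12 above, 11 below).

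Leaving out each library in turn gave, for PKM2-knockdown ectosomes against control, 0 to 1 rises (RPL17, without control replicate 3), 72 to 75 falls, and 9 to 21 genes above and 4 to 11 below the members together. For PKM2-knockdown against scramble ectosomes it gave 0 to 1 rises (RPL17, without control replicate 3), 58 to 74 falls, 7 to 27 above and 7 to 19 below. For scramble ectosomes against control it gave 0 to 2 rises, 28 to 54 falls, 6 to 20 above and 7 to 12 below. In that comparison the fewest falls came without scramble replicate 1 and the most without control replicate 2. The highest of the numbers above the members came without control replicate 3 in each comparison.

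Estimates near 0 changed sign. For scramble ectosomes against control, RPS19 was -0.14 with library totals and -0.046 with upper quartile factors. RPS27L was -0.19 and -0.10 with these, -0.037 with no filter, -0.042 with only the 2 groups, and -0.13 to 0.27 with a library left out. RPL36AL ranged from -0.077 to 0.066 and RPL7L1 from -0.11 to 0.028 with a library left out. RPS3 was 0.11 with library totals and 0.046 with upper quartile factors for PKM2-knockdown against scramble ectosomes. Without control replicate 3, RACK1 was 0.13, RPS13 0.078 and RPL38 0.010 for scramble ectosomes against control. Over every member and listed gene tested in the 3 comparisons, 7826 of the values under an alternative kept direction and call, 302 lost the call, 203 gained it and 134 changed sign.

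Same-numbered libraries shared no clear deviation from their group means, with correlations of deviations of -0.09 to 0.07. Whether the replicate numbers mark pairs is not stated in the labels. With the replicate block, 74 genes fell and 0 rose with PKM2-knockdown ectosomes against control, 67 fell and 0 rose against scramble ectosomes, and 48 fell and 1 rose with scramble ectosomes against control. Depth limits RPL3L, RPS10, RPL17 and RPL36A, whose estimates are uncertain also through overlapping or copied sequence.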
